A study of Caenorhabditis elegans with 2 samples.

Results

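The genes described here are lin-35 and 6 others that encode subunits of the DREAM complex of Caenorhabditis elegans: efl-1, dpl-1, lin-9, lin-37, lin-52 and lin-54. They were named as a list of 7 of the 46926 annotated genes, and lin-35 was chosen by its own measured value, a strong promoter peak of AKIR-1, so its values are a description. For each gene every peak was taken whose summit lay inside the gene or within 1 kb upstream of any transcript start. By that rule the 7 genes held 13 of 30000 peaks in each of the pooled, replicate 3 and replicate 4 lists. They held 2 of the 400 peaks in the list thresholded by irreproducible discovery rate (IDR), a measure of how well replicate ranks agree. Those 2 peaks had the same signal and rank there as in the pooled list, ranks 62 at lin-35 and 212 at lin-54. Membership in it is therefore not read as agreement apart from strength.

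DREAM joins a pocket protein of the retinoblastoma family, an E2F and DP pair of transcription factors, and a core called MuvB. In the worm these are LIN-35, EFL-1 with DPL-1, and LIN-9, LIN-37, LIN-52, LIN-53 and LIN-54. The complex sits at promoters and is known for holding cell cycle genes down in resting cells and germline genes down in the soma. Several of its genes were found as class B synthetic multivulva (synMuv B) genes, which act redundantly with class A genes in vulval fate. AKIR-1 is the worm akirin, a small conserved nuclear protein that takes part in transcriptional regulation.

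The data are chromatin immunoprecipitations of whole worms of strain IG1654, which carries the transgene frSi12, AKIR-1 fused to GFP under the akir-1 promoter, on chromosome II. The labels also speak of an insertion by CRISPR directed at akir-1, so whether the tagged protein is an added copy or the endogenous one is not settled by them. The labels describe a GFP and FLAG tag at the C terminus and precipitation with an antibody to GFP, while their antibody field names akir-1. There is 1 group, 2 biological replicates numbered 3 and 4, both of 70 hour young adults of mixed sex grown from starved L1 larvae, and a shared control alignment but no second condition. Peaks come from all tissues of the animal at once, so weak signal everywhere and strong signal in few cells cannot be told apart. The lists hold positions and scores and no read counts, so depth is unknown. Signal values are the authors' own, and their scale is not stated and differs between lists. They are set against other genes within a list, by value or by rank, where 1 is the strongest peak, and between the replicates by a ratio read against that of all shared peaks. With 1 group no test of a condition was possible, and none is given.

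Of the 7 genes, lin-35 and lin-54 had an IDR-thresholded peak, lin-9 and lin-52 had promoter peaks within the 1500 strongest of the pooled list, dpl-1 had lower-ranked peaks inside the gene, lin-37 had a peak in replicate 3 alone, and efl-1 had none in any list. The full lists are permissive, with q-values up to 0.802 in the pooled, 0.783 in the replicate 3 and 0.841 in the replicate 4 list. A place in them is therefore not a significant call by itself. The leading pooled peaks had q-values of 0.0264 at lin-35 and lin-54, 0.208 at lin-9, 0.253 at lin-52 and 0.649 at dpl-1. The replicate 3 peak of lin-37 had 0.666. By number, 5 of 7 had a pooled peak, against 62.1% of 19973 nuclear protein-coding genes. In replicate 3 there were 6 of 7 (63.1% of all), and in replicate 4 there were 5 of 7 (62.9%). Summits of each replicate, not necessarily at the same place, were in the windows of 5 (49.1%). Counts of this size are near the background and are no result about these genes. For IDR-thresholded peaks the count was 2 of 7, or 1 of the 6 without lin-35, against 1.82%. Since lin-35 was chosen for its peak, nothing is read from its part in these counts. The 1 left is lin-54, whose peak summit lay 408 bp from its own start and 15 bp inside the neighbouring gene rpl-12. It therefore cannot be credited to lin-54 alone.

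The strength and place of the peaks were read next. In the stretch from 500 bp before a transcript start to 100 bp after it, called the promoter here, lin-35, lin-9, lin-52 and lin-54 had a pooled summit, 4 of 7 or 3 of 6 without lin-35, against 23.0% of protein-coding genes. The same 4 genes were those with one of the 4000 strongest pooled peaks in the gene or 1 kb upstream, again 3 of 6 without lin-35, against 14.7%. At lin-54 these counts rest on the peak whose nearest start is that of rpl-12. Among genes with a pooled peak, the median signal of the strongest was 83.2 over the 5 DREAM genes, 81.1 over the 4 without lin-35, and 50.1 over 12410 protein-coding genes. The same lin-54 peak enters these medians. All 7 genes were listed with earlier results of these data known. Leaving out lin-35 therefore does not free these contrasts from selection, and they are a description. Long genes have more room for a summit, and the windows ran from 1.67 kb at lin-52 to 8.93 kb at lin-35, against a median of 3.03 kb. Per kb of window the 7 genes held 0.391 pooled peaks, the 6 without lin-35 held 0.329, and all protein-coding genes 0.312, so without lin-35 the rate was near the background.

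**Figure D1:**
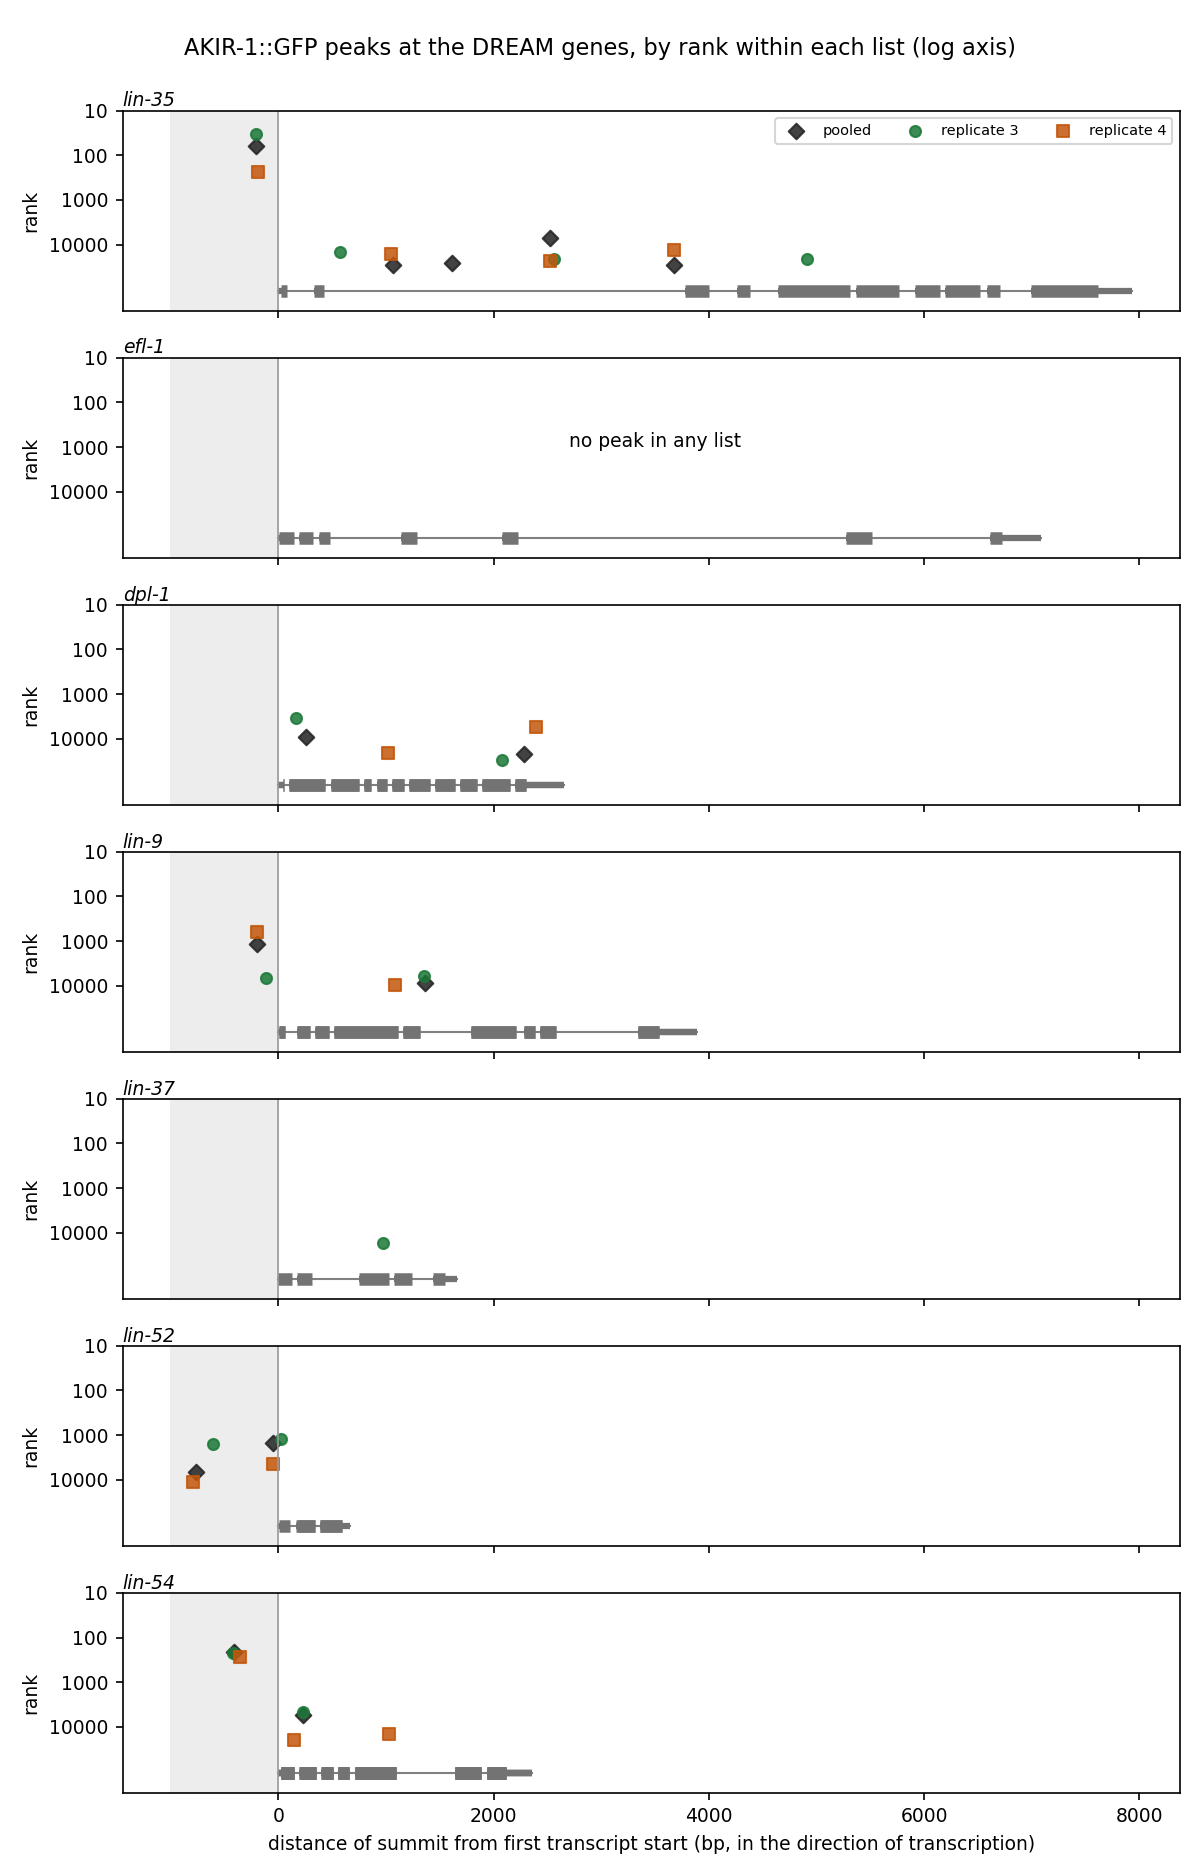
Peak summits at the 7 genes by distance from the first transcript start (bp, negative is upstream) and by rank within each list (log axis, strongest at the top). Diamonds are the pooled list, circles replicate 3 and squares replicate 4; the grey band is the 1000 bp upstream, and the bar is the gene with exons thick. The summits within 100 bp of each other upstream of lin-35 and lin-54 stand above rank 400 in all 3 lists, and no summit lies at efl-1.

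The pocket protein gene lin-35 lies on chromosome I from 5807709 to 5815637, on the plus strand, with 1 annotated start. Its leading peak, from 5807312 to 5807691, had a signal of 191 and rank 62 in the pooled list. In replicate 3 the same peak had a signal of 123 and rank 34, and in replicate 4 a signal of 66.5 and rank 241. Both replicates thus placed it among their 400 strongest, but higher in replicate 3.

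The 3 summits at lin-35 lay 207 bp (pooled), 205 bp (replicate 3) and 186 bp (replicate 4) upstream of the start, so the replicates differed by 19 bp. Its q-value equalled the lowest of the list in each case, 0.0264 in the pooled, 0.0867 in the replicate 3 and 0.0180 in the replicate 4 list. That lowest value was shared by 247, 433 and 250 peaks, so the q-value does not order lin-35 among them. In the IDR-thresholded list it was number 46 of 384 nuclear peaks, where the median signal was 133 and the highest 390. Ordered by strongest window peak, the number of protein-coding genes as high as lin-35 or higher, itself included, was 50 in the pooled list, 25 in replicate 3 and 214 in replicate 4.

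The lin-35 summit lies in the space between divergent genes. Its neighbour vps-51, which encodes a subunit of a tethering complex of the Golgi, lies from 5803956 to 5807291 on the minus strand and starts at the higher of these positions. The pooled summit was 207 bp from the lin-35 start and 211 bp from that of vps-51, almost the midpoint. In replicate 3 the distances were 205 and 213 bp, and in replicate 4 they were 186 and 232 bp. The peaks do not tell these genes apart.

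Inside lin-35 the peaks ranked far below the promoter peak. The pooled list had 4, all in introns, with signals of 34.1 to 54.7 and ranks of 7287 to 29097. The strongest, 2523 bp downstream of the lin-35 start, had a summit within 35 bp in both replicates but at ranks of 20624 and 22910 there. It lay 230 bp upstream of C32F10.4, a protein-coding gene within lin-35 on the other strand, which was nearer than the lin-35 start. One of the 4 overlapped no peak of either replicate, and the other 2 overlapped a replicate 4 peak alone.

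**Figure D2:**
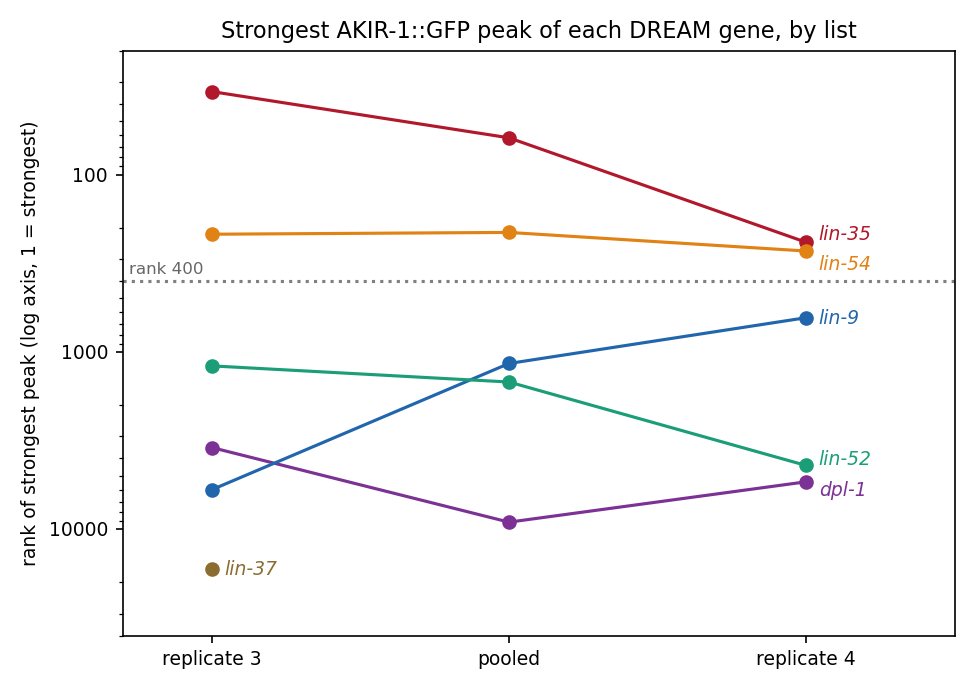
Rank of the strongest peak of each DREAM gene (log axis, strongest at the top) in replicate 3, the pooled list and replicate 4, with points of a gene joined and a dotted line at rank 400. The lin-35 and lin-54 lines stay above the dotted line, lin-9 is ahead of lin-52 in replicate 4 and behind it in replicate 3, lin-37 has 1 point, and efl-1 has no peak to plot.

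The E2F and DP genes, whose products bind DNA together, had no promoter summit in the pooled list. The E2F gene efl-1, on chromosome V from 16958590 to 16965675 on the minus strand, had no summit in a window of 8.09 kb in any of the 4 lists, like 21.9% of protein-coding genes. The nearest summits outside that window were 5198 bp beyond its edge in the pooled list, 3804 bp in replicate 3 and 836 bp in replicate 4. Its window is longer than those of 90.7% of protein-coding genes or equal to them.

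The DP gene dpl-1, on chromosome II from 9169910 to 9172565 on the plus strand, had 2 pooled peaks inside the gene. The stronger, 253 bp downstream of the start in a coding exon, had a signal of 51.6 and rank 9149, close to the 50.1 of all protein-coding genes with a pooled peak. It overlapped a replicate 3 peak of signal 38.3 and rank 3470, 167 bp downstream of the start, and no replicate 4 peak. In replicate 4 the strongest dpl-1 peak was at the other end, in the 3' UTR 2398 bp from the start, with a signal of 33.1 and rank 5416. The replicates therefore put their strongest dpl-1 peak at opposite ends of the gene, and 13.1% and 19.0% of protein-coding genes had a peak as high or higher in replicates 3 and 4. All of dpl-1 also lies within T23G7.2, a protein-coding gene on the other strand.

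Among the MuvB genes, lin-54 had the strongest peak and lin-37 the weakest. The gene lin-54, whose product binds DNA through cysteine-rich domains, lies on chromosome IV from 13241044 to 13243401 on the plus strand. Its leading peak, from 13240446 to 13240825, had a signal of 132 and rank 212 in the pooled list, 71.8 and rank 217 in replicate 3, and 65.0 and rank 270 in replicate 4. These are the closest ranks between replicates of any leading peak of the 7 genes. In the IDR-thresholded list the peak was number 196 of 384 nuclear peaks, at about the median signal of 133.

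The place of this peak is nearer to another gene than to lin-54. Its summits lay 408 bp (pooled), 424 bp (replicate 3) and 355 bp (replicate 4) upstream of the nearest lin-54 start. The divergent neighbour rpl-12, which encodes a protein of the large ribosomal subunit, occupies 13239587 to 13240651 on the minus strand. The same summits were 15 bp and 31 bp inside the 5' UTR of rpl-12, and in replicate 4 they were 38 bp upstream of its start. A second, weaker pooled peak lay in a lin-54 coding exon 224 bp after the start, with a signal of 58.6 and rank 5522, and ranks of 4569 and 19374 in replicates 3 and 4.

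The 300 bases centred on the pooled lin-54 summit are shown because this reproducible peak covers the start of the divergent neighbour. They are chrIV:13240486-13240785 of ce11, on the plus strand, from the RefSeq genome of that assembly. Capitals mark TTTGAA or its complement TTCAAA, letters of the CHR element that proteins of the LIN-54 family bind. The summit is base 151 of the run and the rpl-12 start is base 166, read leftwards on the other strand.
lin-54: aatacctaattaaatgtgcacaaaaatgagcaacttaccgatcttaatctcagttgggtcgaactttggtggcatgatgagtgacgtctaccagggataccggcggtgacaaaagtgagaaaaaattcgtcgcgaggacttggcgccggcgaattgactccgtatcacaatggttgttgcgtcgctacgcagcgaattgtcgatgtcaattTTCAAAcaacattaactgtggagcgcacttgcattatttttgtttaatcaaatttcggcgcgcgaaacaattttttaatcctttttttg

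The scaffold gene lin-9 and lin-52, whose small product links the pocket protein to MuvB, both lie on chromosome III on the minus strand and had promoter peaks below the IDR threshold. At lin-9, from 8900237 to 8904131, the peak 201 bp upstream had a signal of 83.2 and rank 1164 in the pooled list. In replicate 4 it had a signal of 52.3 and rank 642, with its summit 199 bp upstream, and in replicate 3 a signal of 32.8 and rank 6607, 116 bp upstream. The peak thus ranked higher in replicate 4 than in replicate 3, where a peak 1352 bp inside the gene was slightly stronger, with a signal of 33.6 and rank 6003.

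At lin-52, from 9824083 to 9824750, the order of the replicates was the other way. The peak 47 bp upstream of a start had a signal of 79.0 and rank 1481 in the pooled list, 47.2 and rank 1201 in replicate 3, and 34.8 and rank 4382 in replicate 4. Its summit was 22 bp after the start in replicate 3 and 50 bp before it in replicate 4. A further pooled peak, of signal 56.3 and rank 6527, fell 769 bp upstream of lin-52 and 87 bp upstream of the next gene on the same strand, ZK632.9. That gene occupies 9824877 to 9825432, between the pooled summits, so the summit nearer to lin-52 lay just past its 3' end. Whether this stretch acts as a promoter of lin-52 was not tested. The weakest IDR-thresholded peak of any gene had a signal of 108, so lin-54 at 132 was the member nearest above the threshold and lin-9 at 83.2 the nearest below it.

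The windows of 300 bases centred on the pooled summits of lin-9 and lin-52 are shown because each is a promoter peak whose nearest transcript start is that of the DREAM gene itself. They are chrIII:8904182-8904481 and chrIII:9824647-9824946 of ce11, both on the minus strand, in the direction of the genes, with capitals as above. The summit is base 150 of each run, the lin-52 start is base 197, and the lin-9 start lies beyond its run.
lin-9: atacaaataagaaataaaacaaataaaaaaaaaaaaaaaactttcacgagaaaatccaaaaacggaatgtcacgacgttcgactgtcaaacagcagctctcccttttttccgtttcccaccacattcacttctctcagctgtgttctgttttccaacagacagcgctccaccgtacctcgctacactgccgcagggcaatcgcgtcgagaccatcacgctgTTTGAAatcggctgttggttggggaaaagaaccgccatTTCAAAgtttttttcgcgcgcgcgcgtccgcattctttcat
lin-52: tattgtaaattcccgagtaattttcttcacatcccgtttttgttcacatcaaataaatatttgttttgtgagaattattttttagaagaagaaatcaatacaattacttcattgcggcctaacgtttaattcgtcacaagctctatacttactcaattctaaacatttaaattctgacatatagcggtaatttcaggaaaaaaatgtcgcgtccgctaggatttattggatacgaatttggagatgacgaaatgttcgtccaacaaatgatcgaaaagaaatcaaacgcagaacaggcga

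The TTTGAA letters were in 3 of the 5 windows around the strongest pooled summits of DREAM genes, once at dpl-1 and lin-54 and at 2 places at lin-9, and in neither the lin-35 nor the lin-52 window. On both strands they were in 54.8% of 29983 nuclear pooled windows and 41.1% of 384 nuclear IDR-thresholded windows of that length. TTCGAA, a second form of the element, was in none of the 5, against 15.0% of pooled windows. TTCCCGC, the core of an E2F site, was also in none, against 2.56%. In the 300 bases from 250 before to 50 after the first start, TTCCCGC was in 1 of 7 promoters, that of efl-1, and TTTGAA in 5 of 7, against 3.22% and 62.5% of protein-coding promoters. GC content was 36.3% at lin-35, 42.3% at lin-54, 45.0% at lin-9, 33.0% at lin-52 and 46.3% at dpl-1. The median was 37.3% over pooled and 45.0% over IDR-thresholded windows.

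The last MuvB gene, lin-37, lies on chromosome III from 7070890 to 7072552 on the minus strand. Its only peak was in replicate 3, in a coding exon 969 bp after the start, with a signal of 25 and rank 16872. The nearest pooled summit was 1726 bp outside its window. The nearest pooled summits that the rule left out lay 73 bp beyond the window at dpl-1, 119 bp at lin-54, 464 bp at lin-9, 537 bp at lin-35 and 603 bp at lin-52. The last of these was stronger, at a signal of 81.5, than any lin-52 peak within the rule. The furthest upstream pooled summit inside it was 769 bp from a lin-52 start.

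Overlap of pooled peaks with those of the replicates followed the strength of the peak. The pooled list is made from the same reads as the replicate lists, so this overlap is no independent check. Of the 13 pooled peaks, 10 overlapped a replicate 3 peak by at least 1 bp, 11 a replicate 4 peak and 9 both, against 45.9% of nuclear pooled peaks found in both. All 4 that ranked 1 to 1500, the chosen lin-35 peak among them, were in both, as were 97.8% of 1483 nuclear peaks in that range. Of the 5 ranked 1501 to 10000, 4 were (76.5% of all), and of the 4 weaker ones 1 was (29.0%). At each strength the DREAM genes were close to the background.

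Where both replicates had the peak, their signal was compared as log2 of replicate 3 over replicate 4, for which the median over 13765 shared nuclear peaks was 0.06. The lin-35 promoter peak had 0.89, higher than 95.4% of them, and the lin-9 promoter peak had -0.67, higher than 7.21%. The lin-54 peak had 0.14 and the lin-52 peak 0.44. Among the 1451 shared peaks of rank 1 to 1500 the ratios ran from -0.95 to 1.05 between percentiles 5 and 95, and all 4 promoter peaks lay within that range. Summits differed between replicates by 19 bp at lin-35, 69 bp at lin-54, 83 bp at lin-9 and 72 bp at lin-52, against a median of 35 bp in that range of ranks.

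**Figure D3:**
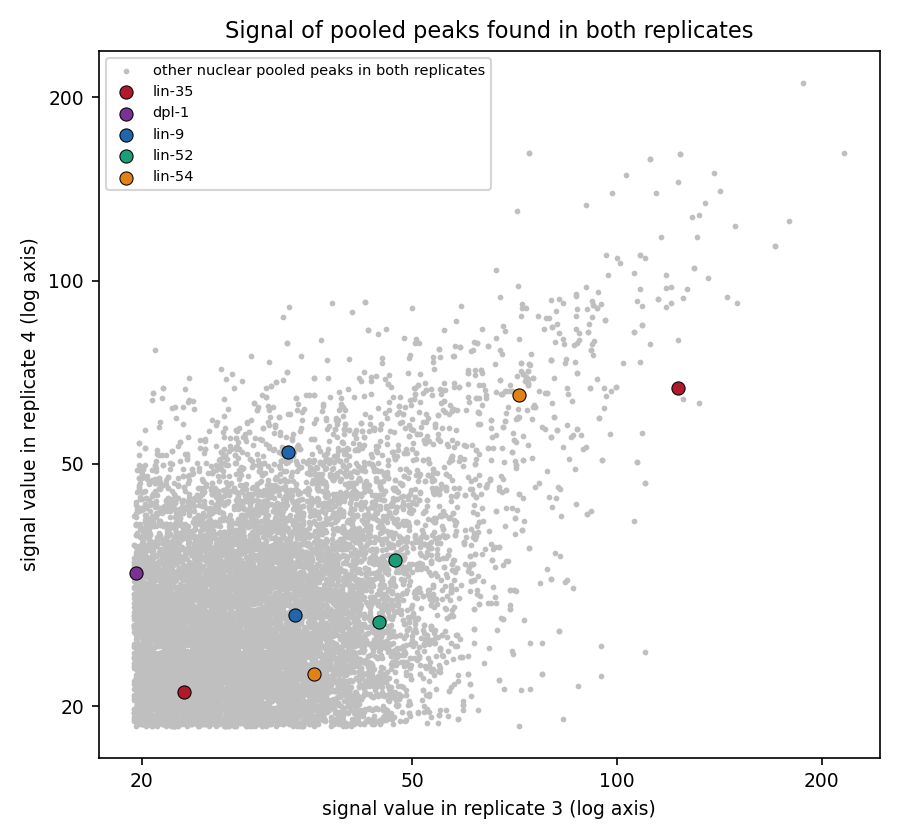
Signal value in replicate 3 (x, log axis) and replicate 4 (y, log axis) of nuclear pooled peaks that overlap a peak in both replicates, in grey, with the 9 such peaks of DREAM genes in colour. The lin-35 promoter peak, at 123 and 66.5, lies towards replicate 3, the lin-54 peak, at 71.8 and 65.0, lies in the middle of the cloud of strong peaks, and the lin-9 promoter peak, at 32.8 and 52.3, lies towards replicate 4.

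The genes most like lin-35 were found by the distance in log10 of the rank of the strongest window peak, over the pooled and both replicate lists and 9154 protein-coding genes. Nearest were F29B9.11 and jmjd-1.2, a histone demethylase gene, which share 1 peak on chromosome IV with ranks of 58, 22 and 307 in the pooled, replicate 3 and replicate 4 lists, at a distance of 0.218. Next, tied at 0.262, came C53H9.4 and egl-30, which encodes a G protein alpha subunit and shares with it a peak on chromosome I with ranks of 70, 54 and 167. The order of replicates, with replicate 3 ahead, is part of what this measure matched.

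Related genes were read from 9 lists of 62 genes in all, chosen by known role. A pooled peak was found at 45 of the 62 (72.6%, against 62.1% of protein-coding genes), and an IDR-thresholded peak at 1 (1.61%, against 1.82%). Each replicate list had a summit somewhere in the window at 43 (69.4%, against 49.1%). Those summits need not be at the same place, so this count does not measure agreement. The remaining DREAM subunit gene, lin-53, which encodes a histone-binding protein shared with other chromatin complexes, had a promoter peak of signal 87.6 and rank 909 in the pooled list, 212 bp upstream of its start. Its replicates placed the summit 211 and 210 bp upstream but ranked it 14434 in replicate 3 and 619 in replicate 4. Like the lin-9 promoter peak, it thus ranked higher in replicate 4.

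Of 8 other synMuv B genes 6 had a pooled peak, against 62.1% of protein-coding genes, the share that applies to each list here. The lists are short and their genes differ in length, so these counts are a description. The strongest were at tam-1, which encodes a RING finger protein, with a signal of 95.3 and rank 614 inside the gene, and at met-2, a histone H3 lysine methyltransferase gene, with 83.2 and rank 1161, 43 bp after its start. In replicates 3 and 4 the strongest met-2 peaks ranked 717 and 711, with summits 178 and 50 bp after the start. Of 4 synMuv A genes 1 had a pooled peak, lin-15A, at a signal of 44.2. All 3 NuRD and MEC genes had one, led by mep-1, a zinc finger protein gene, at 100 and rank 496, where the summit was nearer to the non-coding gene M04B2.11, and by the histone deacetylase gene hda-1 at 59.1. Neither other E2F gene, efl-2 or efl-3, had a pooled peak, and efl-3 had peaks of signal 28.1 and 34.7 in replicates 3 and 4, at different places.

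Among 11 regulators of G1 and S phase 10 had a pooled peak, against 62.1% of protein-coding genes. Long genes have more room for one, and cdc-25.2 runs from 1567076 to 1585532. The median signal was 48.6, below the 50.1 of all genes with a pooled peak. The exception in strength was cye-1, the cyclin E gene, with the only IDR-thresholded peak of the 62 genes, at a signal of 148 and rank 143, and 74.1 and 67.5 in replicates 3 and 4. That summit lay 960 bp inside cye-1 and 37 bp upstream of a tRNA gene, WBGene00022955. Next were cdc-25.2, a cell cycle phosphatase gene, at 78.2, and fzr-1, an activator of the anaphase-promoting complex, at 75.5. Of 13 DNA replication genes 9 had a pooled peak (69.2%, against 62.1% of protein-coding genes). Their median was 53.9, and the strongest were at the replicative helicase genes mcm-4, at 75.5, and mcm-6, at 73.3. Among the 62 genes, the strongest pooled peak ranked above that of lin-9 at lin-53, met-2, tam-1, mep-1 and cye-1.

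**Figure D4:**
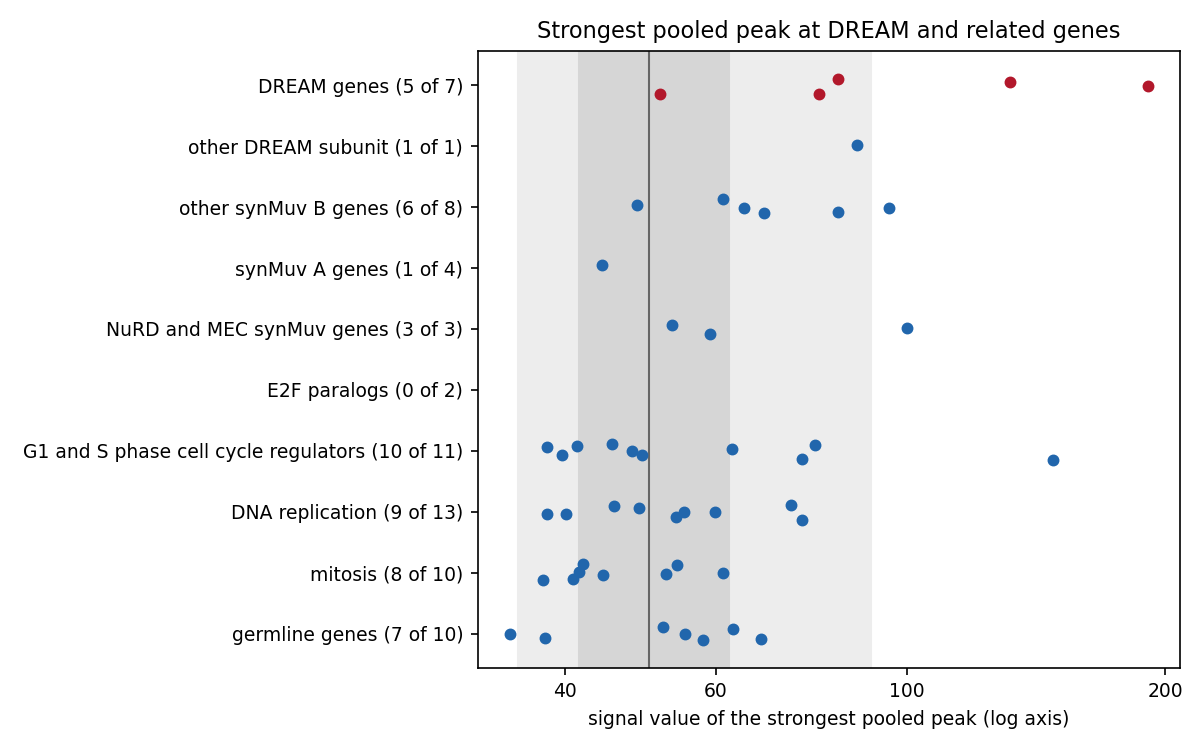
Signal value of the strongest pooled peak (x, log axis) of each gene that has one, by list, with DREAM genes in red and, in brackets, how many of each list have one. The line is the median of all protein-coding genes with a pooled peak, 50.1, the dark band percentiles 25 to 75 (41.6 to 62.2) and the light band percentiles 5 to 95 (35.3 to 91.0). Besides lin-35 and lin-54 only tam-1, mep-1 and cye-1 exceed the light band.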

How the data were processed

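Peaks of AKIR-1::GFP chromatin immunoprecipitation from 2 replicates were deposited as 4 lists on ce11, per the file headers and the texts deposited with them: 1 per replicate, 1 of both pooled, and 1 IDR-thresholded. Each call used 1 control alignment set shared by all of them. Sonicated fragments had a size range of 200 to 800 per the labels. For the aligner, the peak caller and the IDR threshold, names and versions are not given here by any source. Signal values and the −log10 q-values (read as q-values) were used as the authors deposited them. Each full list holds 30000 peaks, and nearly all nuclear peaks have 1 width, 380 bp in the pooled and replicate 4 lists and 370 bp in replicate 3, with the summit at the centre.

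Positions are counted from 1. Genes came from Ensembl release 115 and sequence from RefSeq, both on the same assembly. Members, lists and motifs were chosen with earlier results of these data known. All 7 genes are named, as are IDR-thresholded members of each related list and up to 2 more with the strongest pooled peak, neighbours at a member's summit, and the 3 genes most like lin-35, with a tie. Alternatives were upstream windows of 500 and 2000 bp, promoters alone, overlap in place of summits, stronger peaks, q-values up to 0.05, stricter matching and each replicate alone. The assignment of summits was tested on simulated data and against bedtools. Versions were numpy 2.4.6, pandas 2.3.3 and matplotlib 3.10.9 under Python 3.11.15.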

Additional observations from a re-analysis of the deposited data

How the results depend on the processing

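Of 39 alternatives, 31 kept the count or value within the limits set for it, but those limits allowed sizeable falls. Pooled member peaks found in both replicates fell from 9 to 6 with summits within 100 bp and were counted as kept. Over all nuclear pooled peaks the share fell from 45.9% to 25.9%. Members with a replicate 3 peak fell from 6 to 4 in promoters alone and were counted so too. Over all protein-coding genes that share fell from 63.1% to 22.8%. With q-values at or under 0.05 the members with a pooled peak fell from 5 to 2, and those with a replicate 4 peak from 5 to 2. Of all protein-coding genes 1.67% and 1.88% then had one. Those with a replicate 3 peak fell from 6 to 0, as did every gene, since the lowest q-value of that list is 0.0867. The stronger 200 IDR-thresholded peaks held 1 member in place of 2, lin-35, against 0.871% of protein-coding genes. The 4000 strongest replicate 4 peaks held 3 in place of 5, against 14.6%. Leaving out a replicate gave the values of the other replicate's own list, so these repeat the replicate results above and are no separate check. They were 5 members with a peak without replicate 3 and 6 without replicate 4, with 0.391 peaks per kb in either case. The place for lin-35 was the top 0.803% without replicate 3 and 0.113% without replicate 4, against 0.207% when pooled. Without replicate 3 its place was thus well over 1.5 times the pooled value. Peaks per kb were 0.403 with 500 bp and 0.447 with 2000 bp upstream, against 0.391. These include lin-35, and the rate over all protein-coding genes is not given for those windows, so they are not set against a background. No paired analysis was possible because there is 1 group. Depth is unknown, so a gene with no peak, such as efl-1, is one where none was listed.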

Other observations

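Germline genes and mitotic genes are 2 of the 9 lists of related genes, and none of their members had an IDR-thresholded peak. Of 10 germline genes 7 had a pooled peak (62.1% of protein-coding genes do), with a median signal of 55.2 against 50.1. The strongest were pgl-3, which encodes a P granule protein, at 67.7 and rank 2952, and gld-1, which encodes an RNA-binding translational repressor, at 62.8 and rank 4102. The pooled pgl-3 summit lay 2285 bp inside the gene. The strongest pgl-3 peak of replicate 3, at 2289 bp, ranked 836, and that of replicate 4, at 2085 bp, ranked 10424. Of 10 mitotic genes 8 had a pooled peak, with a median signal of 43.2. The strongest, of signal 61.2 and rank 4607, lay 298 bp upstream of bub-1, a spindle checkpoint kinase gene, and 361 bp upstream of the synMuv B gene lin-61, which share it. The cyclin B3 gene cyb-3 followed at 54.1.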
